A study of Homo sapiens with 6 samples.

Results

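Retinoid handling was followed through 9 genes of 20036 in the table: LRAT for storage, RDH10, RDH11 and DHRS3 for the exchange of retinol and retinal, ALDH1A1 and ALDH1A3 for oxidation to retinoic acid, CRABP2 for its carriage, and RARA and RARB as receptors. They were picked by symbol because LRAT had one of the deepest falls between knockdown and control libraries, so their differences in that contrast are given as a description. The RNA came from cultured PANC-1 cells, an immortal line grown from a human pancreatic carcinoma. In 3 libraries the cells had received a lentivirus that knocks down SHMT2, the mitochondrial serine hydroxymethyltransferase, and in the other 3 a null virus. The labels name no hairpin, clone, batch or culture, so it is not known whether the replicates were separate cultures, and the spread behind each p-value may be technical.

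Vitamin A circulates as retinol and is stored in cells as retinyl esters, which LRAT makes by moving an acyl chain from phosphatidylcholine to retinol. Retinol that is not esterified can be oxidised reversibly to retinal and then irreversibly to retinoic acid, which binds nuclear receptors on DNA as RAR and RXR pairs. In the pancreas, ester stores are known mainly from stellate cells, while retinoic acid directs endocrine and acinar development in the embryo.

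Library totals ran from 16748432 to 19075734 counts in knockdown and from 15405884 to 16366452 in control libraries. SHMT2 had 139, 56 and 101 counts in knockdown replicates 1, 2 and 3 against 2113, 2284 and 2417 in control replicates 1, 2 and 3, which left 3.55% of the control level. Of 12292 genes tested, 51.8% were called at an adjusted p below 0.05 by edgeR (26.7% higher and 25.1% lower in knockdown), and the groups' values did not overlap in 61.4%. Of 7 epithelial marker genes, KRT8 and KRT18 were abundant in every library, whereas KRT19 had 1523, 900 and 1518 counts in knockdown and 3, 4 and 0 in control libraries. EPCAM fell, with 120, 124 and 141 counts in knockdown and 286, 279 and 278 in control libraries (log2 fold change -1.38, SE 0.13, edgeR adjusted p = 0.000172). KRT8 and MUC1 were called higher, and KRT7 and KRT18 were not called. CDH1 and KRT19 were also called higher, but both passed the filter on low counts only through the knockdown libraries. The 7 summed to between 1753 and 2239.9 CPM (counts scaled to a common library size) in knockdown and between 1162 and 1518 in control libraries. Of 8 stellate and fibroblast markers, only THY1 had enough counts to test. THY1 had 21, 31 and 23 counts in knockdown and 35, 36 and 45 in control libraries. It was called lower (log2 fold change -0.87, SE 0.27, edgeR adjusted p = 0.0289). DCN and FAP had 0 counts in every library, and DES had 1 count in all. The 8 summed to between 1.34 and 2.69 CPM in knockdown and between 3.08 and 3.92 CPM in control libraries. Of the acinar, endothelial and immune markers, only KDR and CD14 had enough counts to test, and both were called higher, KDR having passed the filter only through the knockdown libraries. The endothelial markers summed to between 5.81 and 7.25 CPM in knockdown and between 0.441 and 0.601 CPM in control libraries, and the immune markers to between 2.26 and 3.11 CPM in knockdown and between 0.802 and 1.84 CPM in control libraries. The part of these cell type markers in the results below was not tested. In whole-culture RNA, fewer cells of a type and less RNA per cell cannot be told apart.

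One library in each group stood apart. Measured as chi-square per gene, knockdown replicates 1 and 3 differed by 2.40, and each differed from replicate 2 by 70.7 and 72.3. Among the controls, replicate 1 differed from the others by 24.6 and 29.4, and those from each other by 2.04. Knockdown replicate 2 also had 10.42% of its counts in mitochondrially encoded genes, against 4.72% in both others.

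LRAT was almost lost from the knockdown libraries, CRABP2, ALDH1A3 and DHRS3 were 2.85 to 3.61 times as high as in controls, RDH11 and RARA were moderately lower, and RDH10 overlapped between the groups. ALDH1A1 and RARB were at or near 0 in both groups. Of the 9 genes, 7 had enough counts to be tested, of which edgeR called 3 higher and 3 lower, against a background of 51.8% of all tested genes called. The groups did not overlap for 6 of the 7, 3 in each direction, against 61.4% of all tested genes (31.3% higher and 30.2% lower). Because the set was chosen on this contrast, nothing is read from these counts. The median log2 fold change of the 7 was 0.11, and that of all tested genes was 0.003.

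**Figure D1:**
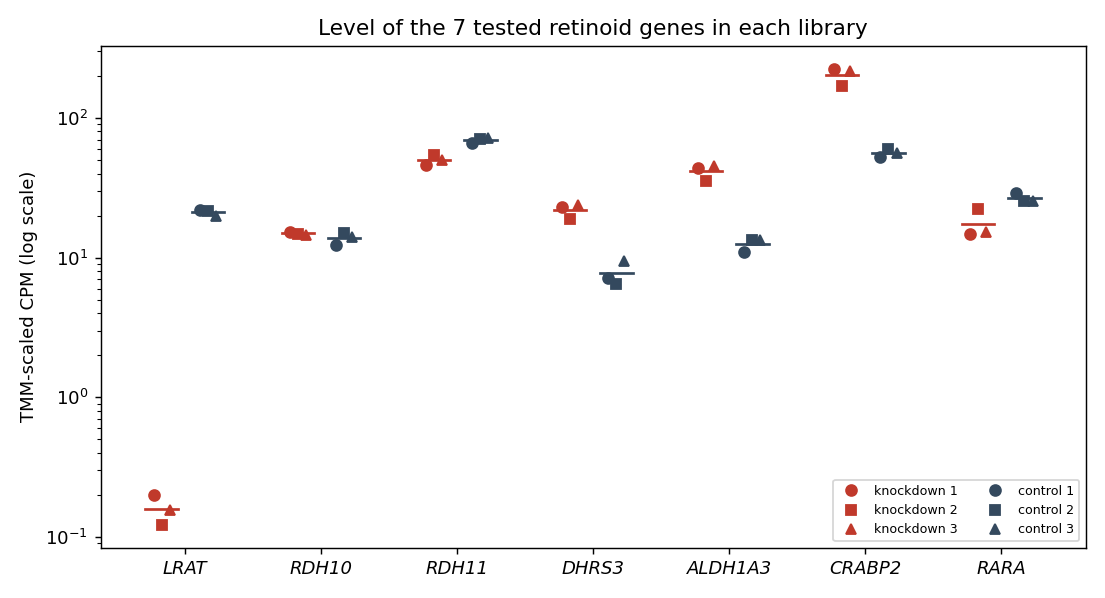
Level of the 7 tested genes in each library, in CPM scaled by trimmed mean of M values (TMM) on a log axis, with knockdown libraries left and control libraries right of each tick; symbols are replicates 1, 2 and 3 and bars are group means. LRAT lies at 0.122 to 0.199 CPM in knockdown and 19.8 to 21.8 CPM in control libraries, and RDH10 is the 1 gene whose groups overlap.

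LRAT (ENSG00000121207, chromosome 4, 154626945 to 154753120, plus strand) had 4, 2 and 3 counts in knockdown replicates 1, 2 and 3, and 346, 323 and 313 counts in control replicates 1, 2 and 3. Scaled to library size, that was 0.199, 0.122 and 0.155 CPM in knockdown against 21.8, 21.6 and 19.8 CPM in control libraries. Within each group the libraries were close, and the gap between groups was many times wider than the spread in either. The knockdown libraries together held 9 LRAT counts, against 982 in control libraries, or 0.766% of the control level (exact 95% interval 0.349% to 1.46%, counting error only). The fitted log2 fold change was -6.97 (SE 0.20, from the F value of the test), the fourth lowest (4 of 12292) among tested genes. That SE is narrower than counting error alone, so the exact interval is the better guide to precision. Its size rests on the few counts left in the knockdown libraries, and LRAT passed the filter on low counts only through the control libraries. No other gene on its strand shares exon bases with LRAT in GENCODE 29.

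The 3 tested genes whose log2 CPM profile over the 6 libraries was nearest to that of LRAT were RAB44, BRINP3 and COL22A1, with root mean square differences of 0.44, 0.49 and 0.70 on the log2 scale after each profile was centred. RAB44, a large RAB GTPase, had 1, 0 and 0 counts in knockdown and 89, 86 and 81 in control libraries. BRINP3 had 1, 0 and 0 counts in knockdown and 85, 67 and 101 in control libraries. The collagen gene COL22A1 had 13, 9 and 15 counts in knockdown and 376, 336 and 354 in control libraries. The log2 fold changes were -7.77 for RAB44, -7.75 for BRINP3 and -5.09 for COL22A1. A small count was added before the profiles were put on the log2 scale, which brings large falls closer together. With libraries in only 2 groups, likeness here means mainly that each gene fell steeply.

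The start regions of LRAT, of CRABP2 and ALDH1A3, which were higher together, and of RARB, whose start region carries a well-known retinoic acid response element, are shown for reference. Each is a RefSeq window of 300 bases around a gene start, GRCh38.p14, read 5′ to 3′ on the gene's strand, with CCAAT and the receptor-binding hexamers in capitals on either strand. The hexamers searched were AGGTCA, its variant AGTTCA, the variant GGGTCA and the variant GGTTCA.
LRAT, chr4:154743750-154744049, plus strand: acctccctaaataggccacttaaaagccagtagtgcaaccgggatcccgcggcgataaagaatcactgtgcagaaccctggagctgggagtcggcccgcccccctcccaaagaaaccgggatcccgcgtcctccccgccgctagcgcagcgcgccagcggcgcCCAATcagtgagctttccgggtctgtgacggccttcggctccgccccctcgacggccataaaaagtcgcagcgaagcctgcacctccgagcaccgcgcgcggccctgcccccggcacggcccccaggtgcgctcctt
CRABP2, chr1:156705735-156706034, minus strand: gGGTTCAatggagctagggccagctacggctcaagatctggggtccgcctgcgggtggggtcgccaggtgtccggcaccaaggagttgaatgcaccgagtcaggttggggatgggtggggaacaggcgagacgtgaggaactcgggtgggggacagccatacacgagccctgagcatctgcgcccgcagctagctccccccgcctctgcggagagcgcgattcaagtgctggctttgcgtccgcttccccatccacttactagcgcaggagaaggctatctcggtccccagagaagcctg
ALDH1A3, chr15:100879581-100879880, plus strand: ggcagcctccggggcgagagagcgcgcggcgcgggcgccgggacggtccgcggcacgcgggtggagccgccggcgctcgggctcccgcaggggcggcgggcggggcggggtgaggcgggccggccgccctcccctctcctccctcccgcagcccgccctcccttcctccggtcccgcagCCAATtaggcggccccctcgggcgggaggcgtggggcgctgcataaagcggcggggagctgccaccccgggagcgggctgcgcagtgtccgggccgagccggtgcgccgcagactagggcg
RARB, chr3:25428013-25428312, plus strand: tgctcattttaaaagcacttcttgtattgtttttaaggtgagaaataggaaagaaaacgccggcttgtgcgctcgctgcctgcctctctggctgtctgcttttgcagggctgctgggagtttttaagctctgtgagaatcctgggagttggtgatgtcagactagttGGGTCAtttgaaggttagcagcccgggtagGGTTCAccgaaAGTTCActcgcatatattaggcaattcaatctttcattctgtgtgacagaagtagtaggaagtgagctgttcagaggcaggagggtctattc
The LRAT, ALDH1A3 and RARB windows lie inside the genes as the table draws them, since the table's gene spans begin further upstream.

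The LRAT window had 32 CpG dinucleotides and 67.3% GC, and the ALDH1A3 window 46 and 81.7%, against medians of 14 and 58.7% over all 35116 RefSeq start windows. The CRABP2 window had 20 CpG and 64.0% GC, and the RARB window 7 and 46.7%. A hexamer was present in 38.6% of all windows and CCAAT in 34.6%, on either strand. LRAT and ALDH1A3 each had 1 CCAAT, 87 and 71 bases before the start, and no hexamer. CRABP2 had 1 hexamer, at the far end of its window. RARB has 4 start windows, and the one printed was chosen because it holds the known element. It had 3 hexamers, of which the last 2 form a direct repeat with a spacer of 5 bases (any pair of the hexamers in the same orientation with NNNNN between them), found in 31 windows (0.0883%). That repeat is the textbook element through which retinoic acid raises RARB. Of the other RARB windows, the third and the fourth held 1 hexamer each, and the second held none. Of the 3 DHRS3 windows, the one at the start the table uses held neither motif and the other 2 held 1 hexamer each.

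RDH10, RDH11 and DHRS3 belong to the short-chain dehydrogenases. RDH10 oxidises retinol to retinal, the rate-limiting step toward retinoic acid in embryos, and DHRS3 and RDH11 reduce retinal back to retinol. RDH10 (ENSG00000121039, chromosome 8, 73294602 to 73325281, plus strand) stood at 15.3, 14.8 and 14.6 CPM in knockdown and 12.3, 15.1 and 14.0 CPM in control libraries. The values overlapped, and the log2 fold change was 0.11 (SE 0.12). On the opposite strand, RDH10-AS1 shares 5.2% of RDH10's exon bases.

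DHRS3 (ENSG00000162496, chromosome 1, 12567910 to 12618210, minus strand) stood at 23.0, 19.1 and 23.9 CPM in knockdown and 7.18, 6.48 and 9.49 CPM in control libraries. Every knockdown library was above every control library, and the lowest of them was replicate 2. The means were 22.0 ± 2.58 CPM in knockdown and 7.72 ± 1.58 CPM in control libraries (SD, n = 3 each), a log2 fold change of 1.51 (SE 0.17) or 2.85-fold.

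RDH11 (ENSG00000072042, chromosome 14, 67676800 to 67695793, minus strand) stood at 46.0, 54.1 and 49.9 CPM in knockdown and 65.9, 71.1 and 72.2 CPM in control libraries. The groups did not overlap, and the log2 fold change was -0.48 (SE 0.10), or 0.717 of the control level. A gene on the same strand, AL049779.1, shares 6.3% of RDH11's exon bases but had only 1 count in knockdown and 1 in control libraries.

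Measured per length, as fragments per kilobase of transcript, scaled to library size (FPKM), the balance between these enzymes differed between the groups. The ratio of DHRS3 to RDH10 was 2.27, 1.95 and 2.48 in knockdown replicates 1, 2 and 3 and 0.887, 0.651 and 1.03 in control replicates 1, 2 and 3. DHRS3 was the more abundant of the pair in all knockdown libraries, and in control libraries it was below RDH10 in replicates 1 and 2 and slightly above it in replicate 3. The ratio of DHRS3 to RDH11 averaged 0.694 ± 0.125 in knockdown and 0.173 ± 0.0316 in control libraries (SD, n = 3 each), so RDH11 was the higher of those reductases in every library. The ratios were chosen after the values were seen and are given with no test.

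**Figure D2:**
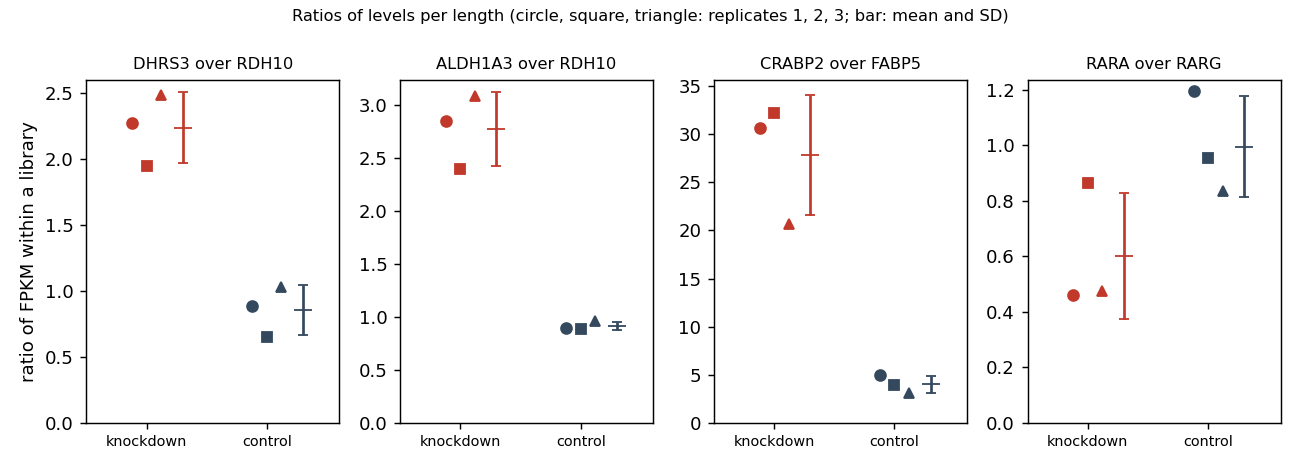
Ratio of FPKM of gene pairs within each library, with knockdown left and control right of each panel; symbols are replicates 1, 2 and 3 and bars are the mean with SD. DHRS3 over RDH10, ALDH1A3 over RDH10 and CRABP2 over FABP5 do not overlap between groups, while RARA over RARG does.

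The retinaldehyde dehydrogenases make retinoic acid from retinal. ALDH1A3 (ENSG00000184254, chromosome 15, 100877714 to 100916626, plus strand) was the form with the most counts. It stood at 43.7, 35.6 and 45.1 CPM in knockdown and 10.95, 13.43 and 13.42 CPM in control libraries. All knockdown libraries were above all controls, with knockdown replicate 2 the lowest of its group. The means were 41.4 ± 5.15 CPM in knockdown and 12.6 ± 1.43 CPM in control libraries (SD, n = 3 each), a log2 fold change of 1.72 (SE 0.14) or 3.29-fold. An antisense RNA, AC015712.2, shares 27.5% of ALDH1A3's exon bases on the opposite strand, and since no strand setting is given its reads cannot be told apart from ALDH1A3's.

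ALDH1A1 (ENSG00000165092, chromosome 9, 72900671 to 73080442, minus strand), the form used as a stem cell marker in many tissues, had 0, 1 and 0 counts in knockdown and 0 counts in all control libraries. A count of 0 allows up to 0.195 CPM in the shallowest library, so ALDH1A1 was not detectable at this depth. ALDH1A2, the main embryonic form, was outside the 9 genes, too low to test and named after its values were seen. It had 16, 10 and 12 counts in knockdown and 0, 0 and 2 in control libraries, and the summed counts scaled to library size were 15.9 times as high in knockdown (exact 95% interval 4.11 to 136, counting error only). Against the retinol oxidase, ALDH1A3 was 2.78 ± 0.351 times the RDH10 level per length in knockdown and 0.913 ± 0.0395 times in control libraries (SD, n = 3 each).

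CRABP2 (ENSG00000143320, chromosome 1, 156699606 to 156705816, minus strand), which carries retinoic acid to the nucleus and hands it to RARA, had the highest level of the set. It stood at 225, 170 and 215 CPM in knockdown and 52.2, 60.3 and 56.3 CPM in control libraries. The groups were widely apart, and knockdown replicate 2 was again the lowest of its group. The means were 203 ± 29.4 CPM in knockdown and 56.3 ± 4.04 CPM in control libraries (SD, n = 3 each), a log2 fold change of 1.85 (SE 0.13) or 3.61-fold. FABP5, a carrier that can take retinoic acid to PPARD instead, fell, with 12.9, 9.29 and 18.3 CPM in knockdown and 18.6, 26.9 and 32.0 CPM in control libraries. Per length, CRABP2 was 30.7, 32.2 and 20.6 times FABP5 in knockdown and 4.93, 3.95 and 3.09 times in control libraries. FABP5 has processed pseudogene copies that can share its reads, so its level is uncertain. Its call (log2 fold change -0.93, SE 0.28, edgeR adjusted p = 0.0236) was lost without knockdown replicate 1, control replicate 2 or control replicate 3 (adjusted p of 0.065 to 0.0815), its neighbours had a median of 0.61, and it was named after its values were seen.

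RARA (ENSG00000131759, chromosome 17, 40309180 to 40357643, plus strand), a retinoic acid receptor found in most cells, stood at 14.7, 22.4 and 15.2 CPM in knockdown and 29.1, 25.5 and 25.6 CPM in control libraries. The groups did not overlap, but knockdown replicate 2 came close to the controls. The means were 17.4 ± 4.29 CPM in knockdown and 26.7 ± 2.06 CPM in control libraries (SD, n = 3 each), a log2 fold change of -0.62 (SE 0.17). RARA was no longer among the called genes without knockdown replicate 1 (-0.51), knockdown replicate 3 (-0.53) or control replicate 1 (-0.56). On the opposite strand, RARA-AS1 shares 11.8% of RARA's exon bases and AC080112.3 shares 6.2%. RARB (ENSG00000077092, chromosome 3, 24687887 to 25597932, plus strand), the receptor that retinoic acid itself induces in many cells, had 2, 1 and 4 counts in knockdown and 2, 0 and 0 in control libraries, too few for a comparison.

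Ordered by FPKM in the knockdown libraries, CRABP2 came first at 194 ± 35.6, followed by RDH11 at 9.34 ± 0.450, ALDH1A3 at 8.02 ± 1.31, DHRS3 at 6.46 ± 1.01, RARA at 3.75 ± 0.744 and RDH10 at 2.88 ± 0.154 (SD, n = 3). RDH11 and ALDH1A3 overlapped there, as did ALDH1A3 and DHRS3. In the control libraries the order was CRABP2 at 50.5 ± 3.50, RDH11 at 12.3 ± 0.527, RARA at 5.47 ± 0.452, LRAT at 2.72 ± 0.155, RDH10 at 2.51 ± 0.251, ALDH1A3 at 2.29 ± 0.249 and DHRS3 at 2.13 ± 0.425. The last 4 of these overlapped from each to the next. LRAT thus stood beside RDH10, ALDH1A3 and DHRS3 in control libraries, and beside RARB, at 0.0218 ± 0.00599 and 0.0135 ± 0.00866 FPKM, in knockdown libraries.

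Relative to the mean of the other knockdown libraries, the level in replicate 2 was 0.772 for CRABP2, 0.801 for ALDH1A3, 0.813 for DHRS3, 0.993 for RDH10, 1.13 for RDH11 and 1.496 for RARA. For LRAT it was 0.690, on 2 counts. Control replicate 1, relative to the other controls, was at 0.816 for ALDH1A3, 0.844 for RDH10, 0.896 for CRABP2 and 0.899 for DHRS3. It was at 0.920 for RDH11, 1.05 for LRAT and 1.14 for RARA. When knockdown replicate 2 and control replicate 1 were left out, the log2 fold changes were 1.92 for CRABP2, 1.73 for ALDH1A3, 1.55 for DHRS3, 0.05 for RDH10, -0.58 for RDH11, -0.77 for RARA and -6.80 for LRAT.

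To see how far each gene differed from its stretch of chromosome, it was set beside up to 25 tested genes on either side. For LRAT the neighbours had a median log2 fold change of 0.06, with 24 of 50 lower in knockdown, and the median was 0.06 for both CRABP2 and ALDH1A3 and 0.10 for RDH11. For DHRS3 it was -0.20 and for RARA -0.17. RDH10 was the exception, in a run with a median of 0.57, where 10 of 50 neighbours were lower. After subtraction of each gene's own neighbour median, RDH10 was -0.46, while LRAT was -7.02, DHRS3 1.71, ALDH1A3 1.66, CRABP2 1.79, RDH11 -0.58 and RARA -0.45.

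**Figure D3:**
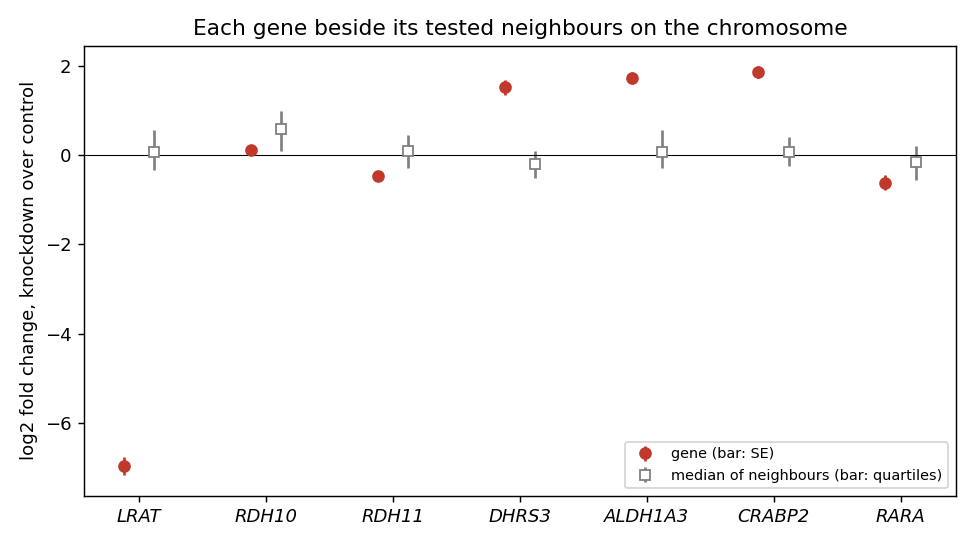
Log2 fold change, knockdown over control, of each tested gene (circles, with SE) and the median of up to 25 tested genes on each side of it (squares, with quartiles). RDH10 lies below the median of its neighbours at 0.57, and LRAT, DHRS3, ALDH1A3 and CRABP2 lie far from neighbours whose medians are between -0.20 and 0.06. The SE bar of LRAT is narrower than its counting error.

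Beyond the 9 genes, 73 other genes of the pathway were listed by role, and 39 had enough counts to test. In edgeR's quasi-likelihood test 13 were called higher and 7 lower, or 51.3% called, which is near the 51.8% of all tested genes. Their median log2 fold change was 0.12, against 0.003 for all tested genes. The count of falls was 4 without control replicate 2, and it was 11 when both libraries that stood apart were left out. Calls over all tested genes, in either direction, moved the same way. They numbered 4748 of 12492 and 9135 of 12415 under those settings, against 6372 of 12292 in the main fit.

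**Figure D4:**
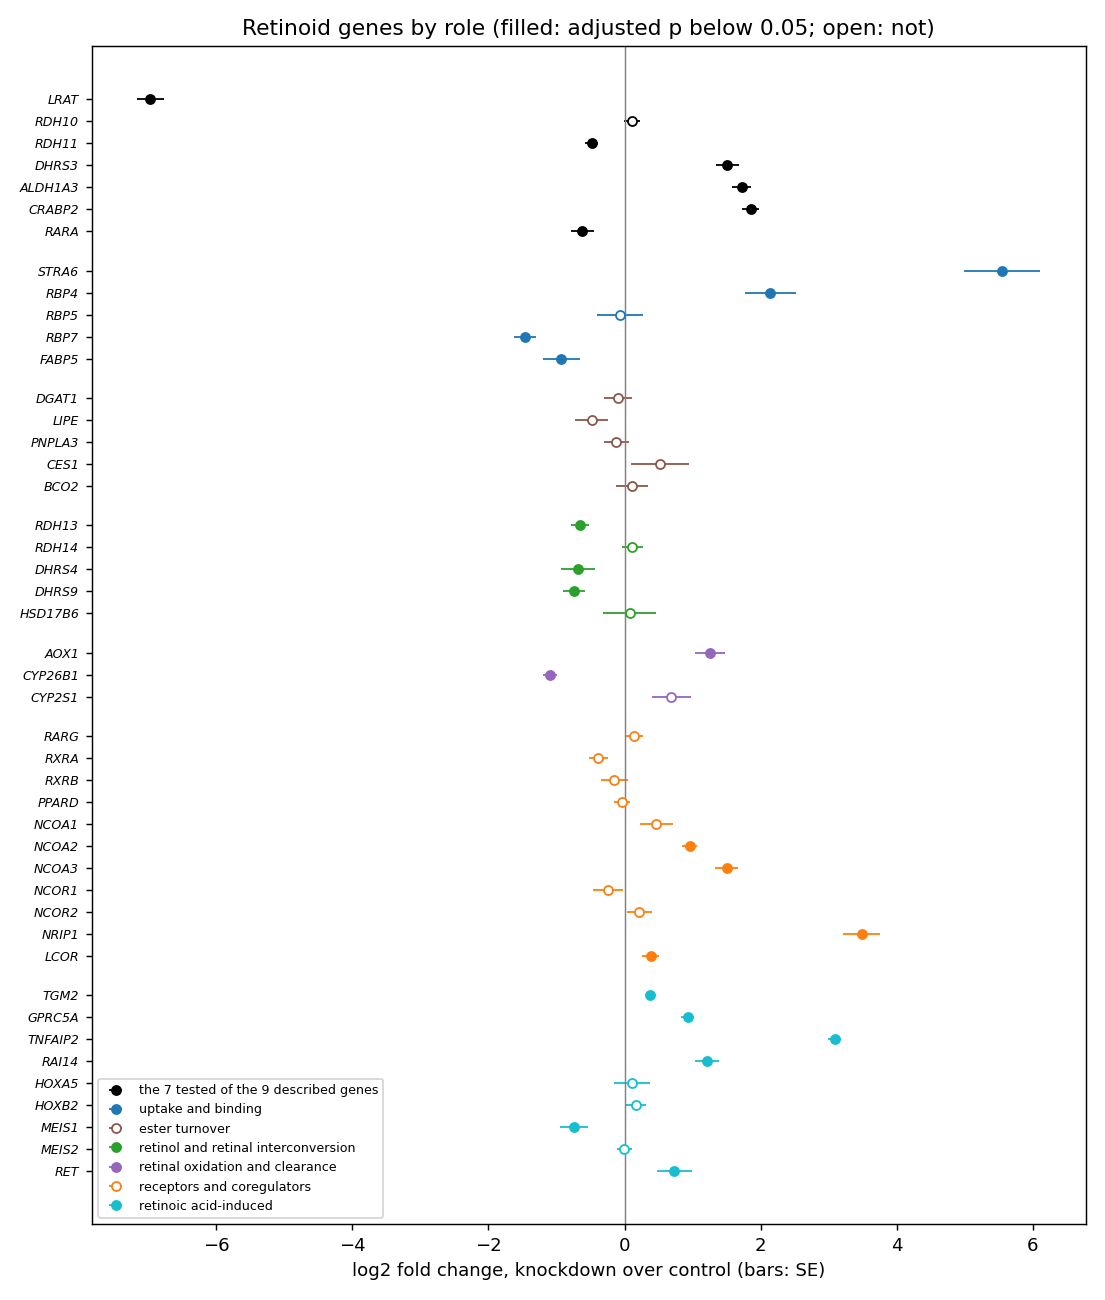
Log2 fold change, knockdown over control, with SE for the 7 tested genes of the set and 38 of the 39 tested genes of the wider lists, grouped by role; filled points passed an adjusted p of 0.05 and open points did not. LRAT at -6.97 and STRA6 at 5.55 mark the ends, and both rest on few counts in the group where they are low. For such genes the SE bars can understate counting error.

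Of 10 uptake and binding genes, 5 were tested, and edgeR called 2 higher and 2 lower, against 26.7% higher and 25.1% lower among all genes. The 2 higher ones, STRA6 and RBP4, passed the filter on low counts only through the knockdown libraries, so they are described with no p. STRA6, the membrane receptor that takes up retinol from its plasma carrier, had 48, 35 and 48 counts in knockdown and 2, 0 and 0 in control libraries. Summed and scaled, that was 54.8 times as high in knockdown (exact 95% interval 14.9 to 457, counting error only). RBP4, that carrier, had 18, 19 and 17 counts in knockdown and 4, 2 and 4 in control libraries (log2 fold change 2.14). Summed and scaled, RBP4 was 4.51 times as high in knockdown (exact 95% interval 2.28 to 9.94, counting error only). RBP7, a cellular retinol-binding protein, fell to 4.197 ± 0.538 CPM in knockdown, against 11.5 ± 1.42 CPM in control libraries (SD, n = 3 each; log2 fold change -1.46, SE 0.16, edgeR adjusted p = 0.000328).

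Of 10 genes of ester turnover and carotenoid cleavage, 5 were tested and edgeR called 0, against 51.8% of all tested genes, with 0 of the 5 below an unadjusted p of 0.05 and 0 called by DESeq2, limma-voom or limma on log2(FPKM + 1). DGAT1, an acyltransferase that can also esterify retinol, stood at 8.35, 13.8 and 10.05 CPM in knockdown and 9.88, 11.4 and 13.2 CPM in control libraries (log2 fold change -0.10, SE 0.21). PNPLA3, a lipase active on retinyl esters, had a log2 fold change of -0.12 (SE 0.19). LIPE, at -0.48 (SE 0.24), was the 1 gene of the 5 whose groups did not overlap, against 61.4% of all tested genes. Its groups almost touched, at 1.894 CPM in knockdown replicate 2 and 1.898 CPM in control replicate 3. DGAT1 was called lower when both libraries that stood apart were left out (-0.42, edgeR adjusted p = 0.00319). CES1, a carboxylesterase, had 31, 19 and 23 counts in knockdown and 10, 24 and 8 in control libraries. Without control replicate 2 its log2 fold change was 1.18 and it was called higher. There it passed the filter on low counts only through the knockdown libraries, so it is described with no p. LIPE and CES1 were named after their values were seen.

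Of 17 other genes of retinol and retinal interconversion, 5 were tested, 3 fell and 0 rose in edgeR, against 25.1% lower among all genes. Of the 5, 0 rose at an unadjusted p below 0.05 or by DESeq2, limma-voom or limma on log2(FPKM + 1). RDH13, a mitochondrial relative of RDH11, stood at 25.8, 23.6 and 26.2 CPM in knockdown and 32.8, 44.3 and 42.1 CPM in control libraries (log2 fold change -0.66, SE 0.13, edgeR adjusted p = 0.00457). DHRS9, a retinol dehydrogenase of epithelia, stood at 9.24, 6.96 and 10.7 CPM in knockdown and 15.0, 15.5 and 14.6 CPM in control libraries (-0.74, SE 0.16, edgeR adjusted p = 0.00711). The call of DHRS4, a retinal reductase with near-identical gene copies beside it, was marginal (-0.69, SE 0.25, edgeR adjusted p = 0.0495) and was lost under 10 of 16 alternatives, with an adjusted p of 0.0506 to 0.167.

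Of 7 genes of retinal oxidation and retinoic acid clearance, 3 were tested, 1 rose and 1 fell, against 26.7% higher and 25.1% lower among all genes. CYP26B1, which hydroxylates retinoic acid for disposal, stood at 37.8, 33.3 and 38.8 CPM in knockdown and 73.4, 80.0 and 81.1 CPM in control libraries. The groups were well apart, and the level in knockdown was 0.469 of that in control libraries (log2 fold change -1.09, SE 0.10, edgeR adjusted p = 0.000139). The other clearance enzymes CYP26A1 and CYP26C1, named after their values were seen, were at or near 0, with 1 and 6 counts in all knockdown libraries and 0 in all control libraries. AOX1, an aldehyde oxidase that can act on retinal, rose to 4.75 ± 0.402 CPM in knockdown, against 1.98 ± 0.538 CPM in control libraries (SD, n = 3 each; 1.25, SE 0.22, edgeR adjusted p = 0.00253).

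Of 12 other receptors and coregulators, 11 were tested, 4 rose and 0 fell in edgeR, against 26.7% higher and 25.1% lower among all genes, and all 4 were coregulators. The 36.4% called lay below the 51.8% of all tested genes. At an unadjusted p below 0.05, 1 was lower (RXRA), which DESeq2 called and limma did not. NRIP1, a corepressor that binds ligand-bound receptors, stood at 58.2, 72.9 and 58.8 CPM in knockdown and 8.18, 5.34 and 3.42 CPM in control libraries (log2 fold change 3.48, SE 0.28, edgeR adjusted p = 8.12e-05). The coactivators NCOA3 and NCOA2 rose 2.83-fold (1.498, SE 0.17, edgeR adjusted p = 0.000368) and 1.94-fold (0.96, SE 0.11, edgeR adjusted p = 0.000413), but the neighbours of NCOA2 had a median of 0.56. RARG, the third retinoic acid receptor, stood at 34.3, 28.0 and 34.5 CPM in knockdown and 26.3, 28.9 and 33.0 CPM in control libraries, with no call. Per length, RARA was 0.462, 0.864 and 0.476 of RARG in knockdown and 1.19, 0.953 and 0.837 of it in control libraries, so the groups overlapped in that ratio. RXRA, the shared partner, was at -0.38 (SE 0.15, edgeR adjusted p = 0.0574) with a neighbour median of -0.43, and it was called lower by DESeq2 (adjusted p = 0.0432), when control replicate 1 was left out (edgeR adjusted p = 0.044) and when knockdown replicate 2 was left out with it (-0.31, edgeR adjusted p = 9.87e-06). The fourth call, LCOR, a ligand-dependent corepressor (0.39, SE 0.12, edgeR adjusted p = 0.0312), was lost when any 1 of 5 libraries was left out (adjusted p of 0.0546 to 0.12). RARG, RXRA and LCOR were named after their values were seen.

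Of 17 genes known to be induced by retinoic acid in other cells, 10 were tested, 6 rose and 1 fell, against 26.7% higher and 25.1% lower among all genes. TNFAIP2, which NF-kB also induces, rose 8.51-fold (log2 fold change 3.09, SE 0.10, edgeR adjusted p = 2.54e-06). GPRC5A, an orphan receptor first found as a retinoic acid-induced gene, stood at 396, 456 and 417 CPM in knockdown and 233, 220 and 215 CPM in control libraries (0.93, SE 0.09, edgeR adjusted p = 0.000184). Other textbook targets were at or near 0 in both groups, with CYP26A1 and RARB as above, RARRES2 at 0 counts in knockdown and 1 in control libraries, and PLAAT4 at 3, 0 and 3 counts in knockdown and 0 in control libraries. RARRES1 had 5, 0 and 4 counts in knockdown and 4, 0 and 5 in control libraries. CD38, also too low to test, had 11, 5 and 8 counts in knockdown and 0, 1 and 0 in control libraries. All of these were named after their values were seen.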

How the data were processed

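RNA-seq of 3 knockdown and 3 control PANC-1 samples was deposited as 1 table of gene counts and FPKM. Counts per gene and FPKM were made by the authors and deposited, per the file headers; which aligner, counter, build or strand setting lay behind them is not given in the sources used here. Recomputing FPKM from the deposited counts, table lengths and library totals gave back 88359 of 88359 nonzero values within a relative 1e-05. Coordinates are the table's; 19852 of 20036 gene IDs are in GENCODE 29, and 78.9% of those share a start or end. Column names matched the 6 sample titles.

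The test across genes used edgeR 4.0.16 and R 4.3.3 (filterByExpr, TMM factors, quasi-likelihood test, Benjamini-Hochberg over 12292 genes, called at an adjusted p below 0.05). Alternatives used DESeq2 1.42.0, limma 3.58.1, other scalings, no filter, a replicate block, and each library left out. Exact intervals cover counting error only, and a count of 0 was given a floor of 3 counts. Each SE is the absolute log2 fold change divided by the square root of the edgeR F value. It can understate counting error where counts are few. Tables and figures used Python 3.11.15, pandas 2.3.3, scipy 1.17.1 and matplotlib 3.10.9. The fit was also run on simulated counts in which a far smaller share of genes changed than was called here. That run therefore does not test how the fit behaves in these data. Start windows came from RefSeq, GRCh38.p14, matched by symbol.

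The 9 genes and the wider lists were chosen with earlier results of these data known. Named were the 9 genes, SHMT2, up to 3 called genes per list by adjusted p (with fewer than 2 calls, the 2 of highest mean CPM) and the 3 profiles nearest to LRAT; others are said to be named after their values were seen. Some single-gene results are not reported here. Replicate numbers did not pair the libraries (correlations of same-numbered deviations -0.30, -0.28 and 0.30). The highest correlation, 0.45, was between control replicate 1 and knockdown replicate 2, the libraries that stood apart.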

Additional observations from a re-analysis of the deposited data

How the results depend on the processing

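SHMT2 was lower under all 16 alternatives (-5.07 to -3.89), and the 3 higher calls in the set held under all 17, while its lower calls numbered 2 or 3. The wider genes called higher numbered 11 to 15. Those called lower numbered 7, against 4 without control replicate 2 (4 to 9 over single libraries left out) and 11 on leaving out knockdown replicate 2 along with control replicate 1. Over all genes, in either direction, 4748 and 9135 were called under those settings, against 6372 in the main fit. At an adjusted p below 0.01 the lower calls numbered 4, where the stricter threshold itself lowers the count. The cause of the other shifts was not tested. LRAT's log2 fold change was -1.86 with limma on log2(FPKM + 1) and -4.53 with a pseudocount of 0.1, since a pseudocount shrinks low values. With the replicate block, 12 wider genes were called higher and 5 lower, and 5444 of all genes against 6372; the numbers do not pair the libraries. No called value changed direction. RDH10, not called, was -0.46 with its neighbours' median subtracted. Depth limits ALDH1A1, RARB and 34 wider genes, which had too few counts to test.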

Other observations

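A further 4 genes of the list induced by retinoic acid passed the test, named here after their values were seen. RAI14, an actin-binding protein, stood at 107, 134 and 110 CPM in knockdown and 64.8, 45.8 and 40.7 CPM in control libraries (log2 fold change 1.21, SE 0.18, edgeR adjusted p = 0.00129). TGM2, tissue transglutaminase, rose by 0.38 on the log2 scale (SE 0.08, edgeR adjusted p = 0.00576), with groups that did not overlap. MEIS1 fell (-0.74, SE 0.21, edgeR adjusted p = 0.0179), a call lost without control replicate 2 and with the replicate block (adjusted p of 0.0691 and 0.0533). RET rose (0.73, SE 0.26, edgeR adjusted p = 0.0464), a call lost in 12 alternatives, and its neighbours had a median of 0.57.

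Of the cytosolic alcohol dehydrogenases that can oxidise retinol, ADH1A, ADH1B, ADH1C and ADH7 had 0 counts in every library; these and the next gene were named after their values were seen. ALDH8A1, an aldehyde dehydrogenase that acts on 9-cis-retinal, was too low to test, with 1, 3 and 4 counts in knockdown and 8, 14 and 13 in control libraries.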
